A study of Sus scrofa with 4 samples.

Results

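The genes described here are the interferons that the pig conceptus secretes around the time of attachment and the receptor chains that could receive them: IFNG, IFN-DELTA-1, IFNGR1, IFNGR2, IFNAR1 and IFNAR2. They were taken by their symbol in the gene lists of the deposited matrices, which gave 6 of 21280 genes. Their counts were followed across the cell classes of pig (Sus scrofa) embryos and of the uterine lining, or endometrium, at day 9 and day 12 of gestation. The 4 groups were embryos and endometrium of each day; the labels name no treatment, breed, genotype or age. Each group was 1 droplet library (10x Genomics 3' chemistry) of enzymatically dissociated cells after red cell lysis, and the sources used here do not give how many animals or embryos it pools. With 1 library per group no difference was tested, and day and library cannot be told apart. All intervals are 95% and reflect the number of molecules counted, with nothing of the spread among animals.

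Interferons are secreted proteins that switch on defence and antigen presentation genes in cells that carry the matching receptor. Type II interferon, the product of IFNG, is bound by IFNGR1 and signals once IFNGR2 joins it, whereas type I interferons, to which the delta family belongs, signal through IFNAR1 and IFNAR2; both routes run through JAK kinases and STAT transcription factors. In pigs the trophectoderm, the outer layer of the conceptus, is known to secrete interferon gamma with a smaller part of interferon delta as the conceptus elongates, while in most adult tissues IFNG is a product of T and natural killer cells. IFNGR1 (chr1:27037151-27061095) and IFN-DELTA-1 (chr1:201654500-201655595) lie on chromosome 1 and IFNG (chr5:32477906-32482670) on chromosome 5 of Sscrofa11.1 in the RefSeq gene table. The other 3 chains lie in a row on chromosome 13, IFNAR2 (chr13:196765915-196852640), IFNAR1 (chr13:196925731-196951398) and IFNGR2 (chr13:197007303-197035604), with IL10RB, the shared chain of the interferon lambda receptor (chr13:196853606-196884237), between the first and the second of them.

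Depth was unequal. The embryo libraries held 109449139 UMIs (molecules counted once) on day 9 and 66992264 on day 12, and the endometrial ones 27250593 and 27589239. In the same order 7000, 6671, 7984 and 8962 cells passed the filters, with medians of 11883.5, 9297, 2639 and 2233 UMIs. Clusters were named from marker genes and are called "-like" for that reason. The embryos held 650 trophectoderm-like and 5863 hypoblast-like cells on day 9, and 3248 and 2549 on day 12, together with 142 epiblast-like and 199 mesoderm-like cells on day 12; the hypoblast is the inner layer that forms the yolk sac. The day 9 file lists far more barcodes than cells, and 89.3% of the barcodes of the day 12 embryo and 99.9% of those of each endometrial library stand among them. Between 196 and 270 kept cells per library carry a barcode that is also a kept cell elsewhere. Without those cells the day 12 to day 9 ratio of IFNG in trophectoderm-like cells was 143 in place of 141, and that of IFNAR1 in hypoblast-like cells was 0.501 in place of 0.495.

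Of the members counted on both days, IFNG had the largest ratio between days in trophectoderm-like cells. In trophectoderm-like cells it had 21 UMIs on day 9 and 18943 on day 12, which is 4.75 CPM (CPM is the gene's UMIs scaled to a common total for the class; interval 2.94 to 7.26) and 668 CPM (659 to 678). The ratio was 141-fold (92.05 to 227). The day 9 UMIs were spread over 19 cells with at most 2 each; 8 of the 650 cells had a barcode that was a kept cell of the day 12 embryo, and these held 1 of the 21 UMIs. IFN-DELTA-1 had no UMI in any kept cell of the day 9 embryo, where 3 counts would be the limit that a count of 0 allows. On day 12 it had 554 UMIs in trophectoderm-like cells, 19.5 CPM (17.9 to 21.2), at least 28.8-fold higher with 3 counts in place of 0.

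These ratios are read against all genes of the same cells. A gene was called higher or lower when its ratio passed 2-fold on the log2(CPM + 1) scale, among genes at 5 CPM or more on a day. In trophectoderm-like cells 29.3% of 7770 genes were called higher and 10.1% lower, and both interferons were among the former, at percentiles 99.9 and 99 of all ratios. Both were under 5 CPM on day 9 (4.75 and 0 CPM) and passed the minimum only through day 12. The direction of their calls was therefore set by the minimum. Scaled by the median ratio of the genes that reached 50 CPM in each library, which lay at -0.29 (log2) in trophectoderm-like cells and -0.16 in hypoblast-like cells, the share of higher among the called genes moved from 74.4% to 87.3% and from 57.7% to 70.6%. The trophectoderm-like cells differed between the libraries in other ways too: their median was 5703.5 UMIs and 0.546% mitochondrial UMIs on day 9, and 8218.5 UMIs and 3.63% on day 12, and they were cluster 4 on day 9 and clusters 0, 1, 6 and 10 of a separate clustering on day 12. Cluster 6, at 0.281% mitochondrial UMIs and a median of 4153 UMIs, held IFNG at 440 CPM. The counting software also differed, with Cell Ranger 4 stated for the day 9 embryo and 6.1.2 for the day 12 one. The part of depth, mitochondrial share and software version in the difference was not tested.

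**Figure D1:**
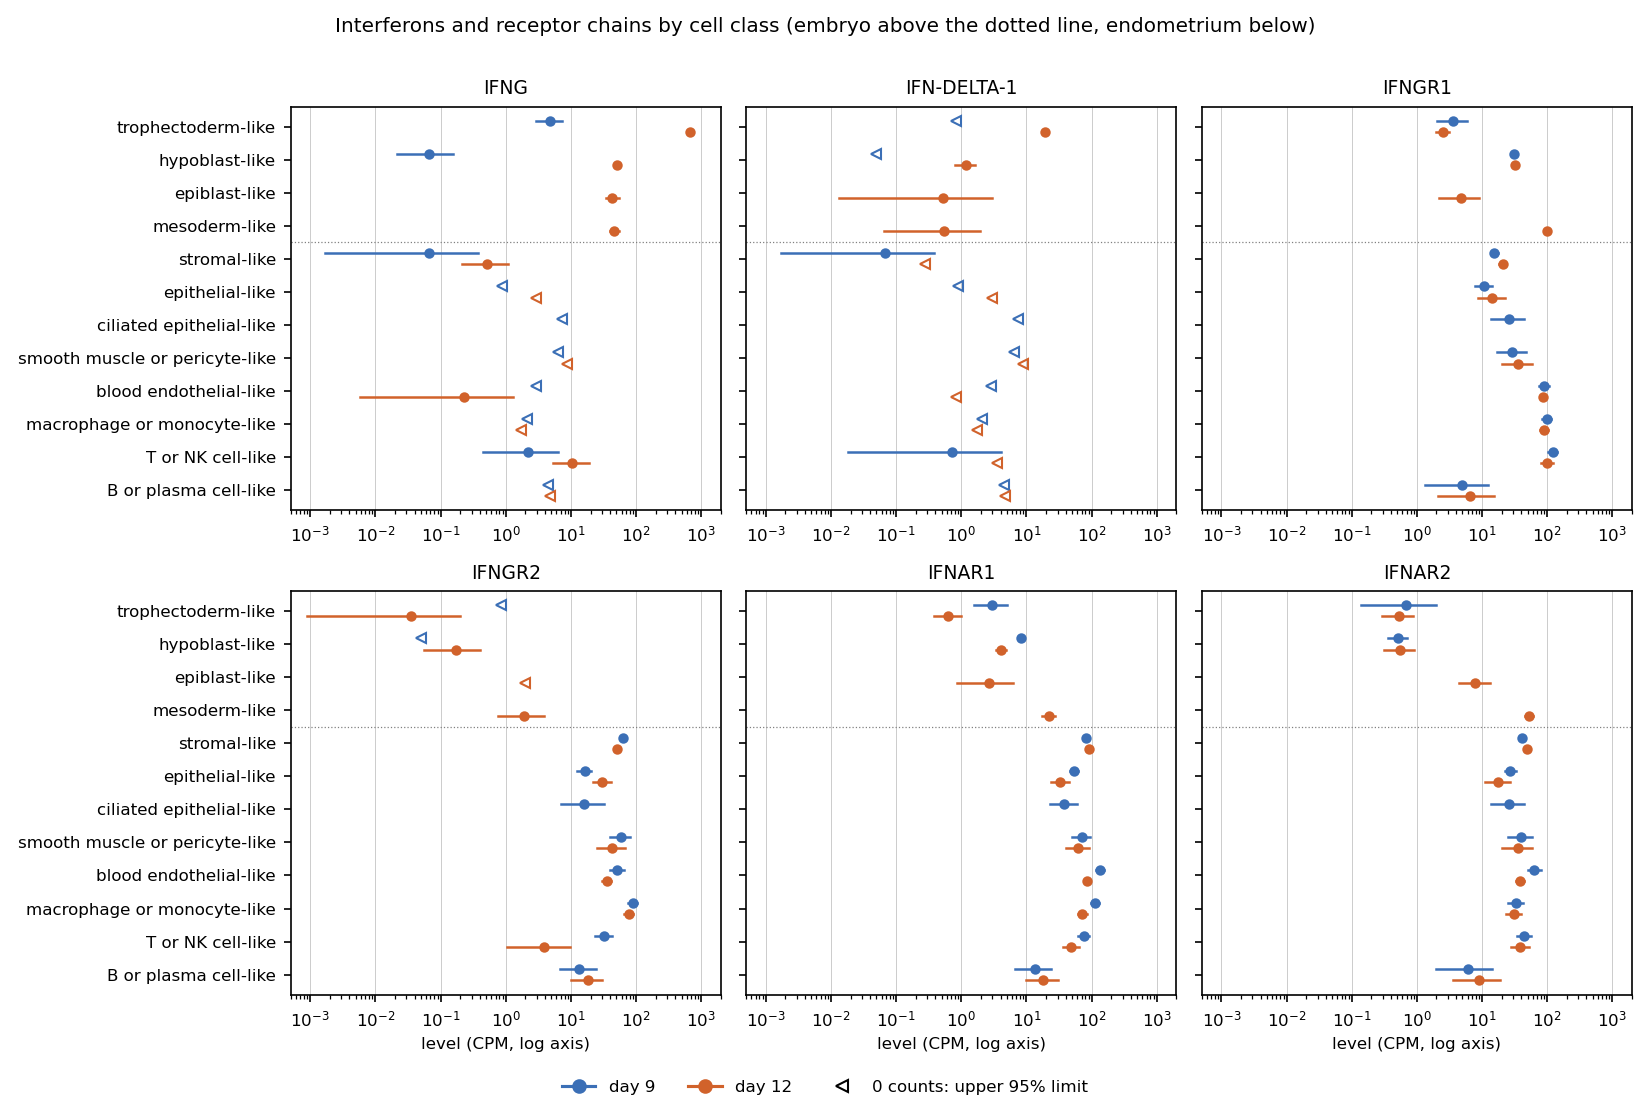
Level of each of the 6 genes (CPM, log axis) in each cell class with 50 cells or more, day 9 in blue and day 12 in orange; bars are 95% intervals for counting error and open triangles are upper limits where the count was 0. IFNG on day 12 is highest in trophectoderm-like cells at 668 CPM, while IFNGR2 lies at or under 1.89 CPM in every embryonic class shown and between 3.83 and 88.8 CPM in the endometrium.

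On day 12 IFNG was counted in a larger share of trophectoderm-like cells than of hypoblast-like, mesoderm-like or epiblast-like cells. A UMI was found in 2979 of 3248 cells, 91.7% (90.7% to 92.6%, exact binomial), against 41.8% of hypoblast-like, 58.3% of mesoderm-like and 41.5% of epiblast-like cells, whose median depths were 11102, 19075 and 11723 UMIs. The trophectoderm-like cells had a median of 4 UMIs, a 90th percentile of 12 and a maximum of 109. Thinned to 2000 UMIs per cell, which left 3016 cells, 68.8% had a UMI, against 9.57%, 12.8% and 7.2% of the other 3 classes and 0.769% of the 650 day 9 cells thinned alike. Counts were uneven: 20.2% of the cells held 50% of the IFNG UMIs, and 562 cells (17.3%) had 10 or more.

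The 4 clusters of day 12 trophectoderm-like cells differed in IFNG beyond their intervals, except clusters 0 and 10. Their IFN-DELTA-1 intervals all overlapped, with cluster 10 at the lowest level. IFNG stood at 590 CPM (579 to 600) in cluster 0, 1036 (1009 to 1064) in cluster 1, 440 (407 to 475) in cluster 6 and 612 (565 to 662) in cluster 10. Cluster 1 held the highest level and the cell with 109 UMIs; it also had the highest mitochondrial share of the 4 (median 6.05%) and the lowest depth (median 3897 UMIs), whose part in its level was not tested. IFN-DELTA-1 stood at 20.5 CPM (18.6 to 22.6), 17.1 (13.8 to 20.9), 21.3 (14.6 to 30.1) and 10.7 (5.36 to 19.2) in the same order. Cluster 10, 89 cells led by the type I response genes ISG15, MX1, IFI6 and BST2, thus did not hold the highest IFNG. Its IFN-DELTA-1 was the lowest of the 4, on 11 UMIs, with an interval that overlapped those of the other 3. Overlap of such intervals does not show that levels are equal, and no ratio between the clusters was computed.

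With IFNG in most trophectoderm-like cells, the share of cells with both interferons says little on whether they go together. IFN-DELTA-1 had a UMI in 429 of 3248 trophectoderm-like cells (13.2%, 12.1% to 14.4%), of which 418 also held IFNG. Both were found in 12.9% of cells, and the product of the single shares is 12.1%. Among cells with IFNG, 14.0% (12.8% to 15.3%) had IFN-DELTA-1, and among cells without it 4.09% (2.06% to 7.20%), a difference that also follows depth. At 2000 UMIs per cell the shares were 3.37% (2.64% to 4.24%) and 2.13%, and the upper bound of the second, 3.27%, lay inside the interval of the first. Of 18 other interferons matched in the files, 4 of them other delta genes, none reached 5 CPM in trophectoderm-like or hypoblast-like cells, and IFN-DELTA-6 and IFN-DELTA-8 had 1 UMI each on day 12. The RefSeq table lists 11 delta genes and the files 5; the sources used here do not say how reads shared by such near copies were counted, so the level of IFN-DELTA-1 is uncertain in that respect. IFNE, an interferon of epithelia, had 137 UMIs in the day 12 hypoblast-like cells (4.73 CPM) against 2 in the trophectoderm-like cells, and 24.9 and 20.9 CPM in epithelial-like cells of the endometrium on days 9 and 12.

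**Figure D2:**
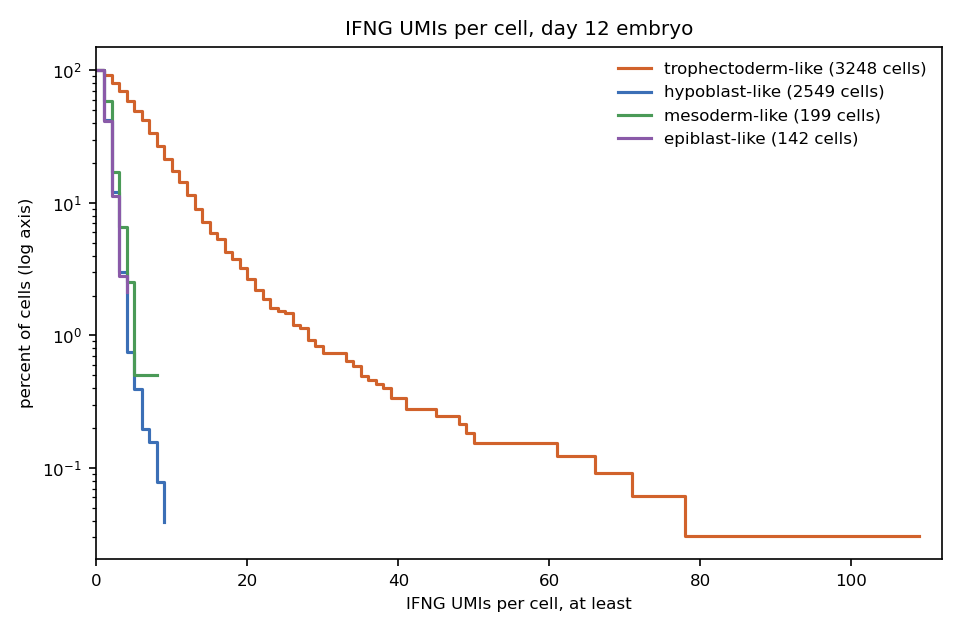
Percent of cells (log axis) with at least the given number of IFNG UMIs, for 4 classes of the day 12 embryo. The trophectoderm-like curve reaches 109 UMIs, and none of the other 3 classes has a cell with 10 or more.

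Outside the trophectoderm-like cells of day 12, IFNG lay at a low and even level. It was at 51.6 CPM (49.0 to 54.3) in hypoblast-like, 46.4 (39.7 to 53.9) in mesoderm-like and 43.4 (34.5 to 53.8) in epiblast-like cells, and these 3 neighbours in order did not differ beyond their intervals. That is 7.72%, 6.94% and 6.49% of the trophectoderm-like level. The 12 trophectoderm markers compared, of 15 that matched, did not share 1 such level. They ranged from 3.48% to 128% of their trophectoderm-like level in hypoblast-like cells. The keratin genes of the marker list were not compared. PLET1, a surface protein gene, stood in the same classes at 5.49%, 4.61% and 5.58% of its trophectoderm-like level, and CYP11A1, a gene of steroid synthesis, at 8.07%, 8.02% and 4.99%. Others stood higher: DAB2, an endocytic adaptor, at 128% in hypoblast-like cells, TFAP2C, a transcription factor, at 123% in epiblast-like cells, HAND1 at 62.4% in mesoderm-like cells, TEAD3 between 17.2% and 35.6% and GATA3 between 9.01% and 17.1% in the 3 classes. IFNG in the hypoblast-like cells of day 9 was 5 UMIs, 0.067 CPM, so its ratio between days there was 773-fold (330 to 2383). With 12% of 8235 genes called higher and 8.78% lower, IFNG was among the higher ones. It passed the 5 CPM minimum only through day 12, so that the direction of this call was set by the minimum. Free RNA and cells of another class in 1 droplet can both leave such low shares, and whether the other classes make IFNG themselves was not tested; no expression by them is read from these levels. IFN-DELTA-1 in hypoblast-like cells, at 34 UMIs in 34 cells, was 6.01% (4.16% to 8.40%) of its trophectoderm-like level.

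**Figure D3:**
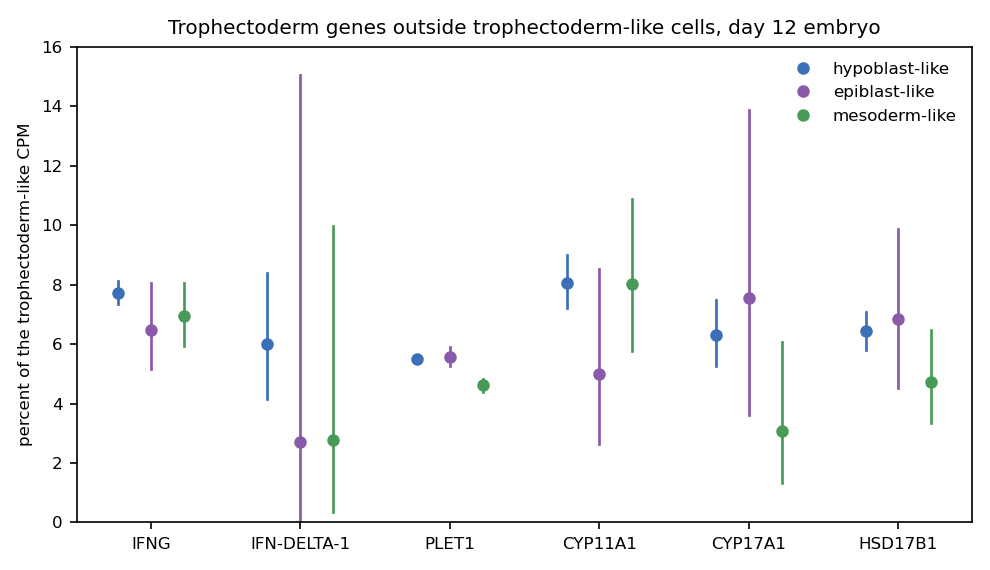
Level in 3 other classes of the day 12 embryo as a percent of the level in trophectoderm-like cells, for both interferons and 4 trophectoderm genes picked as low outside it; bars are 95% intervals from the counts of the named class. IFNG lies between 6.49% and 7.72%, and the other 5 genes between 2.71% and 8.07%; markers such as DAB2 and TFAP2C, at up to 128% and 123%, are not drawn.

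The lymphocyte genes that accompany IFNG in T and natural killer cells were at or near 0 in the trophectoderm-like cells. Of 10 regulators of IFNG in lymphocytes, among them TBX21, EOMES, STAT4 and the receptor chains for interleukins 12, 18 and 2, none reached 5 CPM in trophectoderm-like cells on either day. Of 14 T or natural killer cell markers, 10 had no UMI in the 3248 cells of day 12, CD3D, CD3G, CD8A, NKG7 and KLRK1 included, and the list summed to 35 UMIs, 1.23 CPM. It summed to 2.26 CPM on day 9. In the endometrial T or NK cell-like cells, 9 of the 10 regulators reached 5 CPM.

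The endometrium held little IFNG. It had 4 UMIs in all kept cells on day 9 and 21 on day 12, 0.825 CPM, so the embryo stood 392-fold higher on day 12 (256 to 633). T or NK cell-like cells held 3 of the 4 UMIs on day 9 and 11 of the 21 on day 12, that is 2.16 CPM (0.446 to 6.31) and 10.5 CPM (5.26 to 18.8), a ratio of 4.87 (1.29 to 27.2). In that class 5.94% of 10099 genes were called higher and IFNG was among them. It passed the 5 CPM minimum only through day 12, so that the direction of its call was set by the minimum. In the same class the summed T or NK cell markers went from 2869 to 5021 CPM and the stromal markers from 19432 to 4423 CPM, whose part in the ratio was not tested. At Leiden resolution 1.0, a finer clustering, the IFNG ratio was 2.72, and with a further cluster of T or NK cell genes joined, described with IFNGR2, it was 2.69 (0.726 to 14.9). Stromal-like cells held 1 and 7 UMIs. PLET1, which was 16.3 times as abundant as IFNG in the day 12 trophectoderm-like cells, had 3 UMIs in the endometrium on each day. IFN-DELTA-1 had 2 UMIs in the endometrium on day 9 and 0 on day 12.

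The receptor chains had another distribution than the ligands. Of the chains for interferon gamma, IFNGR1, the binding chain, was present in hypoblast-like cells, with 31.4 CPM (30.2 to 32.7) in the day 9 library against 31.9 (29.9 to 34.1) in the day 12 one, a ratio of 1.02 (0.941 to 1.10). With doublets kept, which left 643 hypoblast-like cells on day 12, the ratio was 0.693. On day 12 mesoderm-like cells held the most, 99.5 CPM (89.6 to 110), 3.11-fold above hypoblast-like cells (2.75 to 3.52), followed by hypoblast-like, epiblast-like at 4.76 CPM and trophectoderm-like cells at 2.50 CPM; the last 2 did not differ beyond their intervals (1.90-fold, 0.835 to 3.81). Trophectoderm-like cells had 3.62 CPM on day 9. The 16 hypoblast markers summed to 2724 CPM there on day 12, against 23183 CPM in hypoblast-like cells, so RNA of hypoblast genes was measured in this class as well. The part of such RNA in the IFNGR1 level was not tested.

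IFNGR2, the chain that interferon gamma needs for signalling, was almost not detected in the embryo. It had 1 UMI in 7000 cells on day 9 and 22 UMIs in 6671 cells on day 12. Of the 22, 9 stood in 5 cells of a cluster of 20 cells with epithelial markers (130 CPM, 59.4 to 247), which shares the leading genes S100A2 and NMB with the epithelial-like cells of the day 12 endometrium. Another 7 were in mesoderm-like cells (1.89 CPM, 0.759 to 3.89), 5 in hypoblast-like cells and 1 in the 3248 trophectoderm-like cells, 0.0353 CPM with an upper limit of 0.197. IFNGR1 and IFNGR2 were found together in 5 of 199 mesoderm-like, 2 of 2549 hypoblast-like and 0 of 3248 trophectoderm-like cells. Expression in the other embryonic classes was not detectable beyond these few UMIs at this depth. The endometrium as a whole held IFNGR2 at 52.2 CPM early and 46.4 CPM late, the latter 136-fold above the embryo of the same day (89.05 to 217).

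Of the type I chains, IFNAR1 was lower in the hypoblast-like cells of day 12, with 616 UMIs (8.23 CPM, 7.59 to 8.91) early and 118 UMIs (4.08 CPM, 3.37 to 4.88) late, a ratio of 0.495 (0.403 to 0.604). It was not called past 2-fold on the log2(CPM + 1) scale and ranked at percentile 13 of the genes compared. With doublets kept the ratio was 0.283, on 643 day 12 cells. In trophectoderm-like cells IFNAR1 was under 5 CPM on both days, with 13 UMIs (2.94 CPM) and 18 UMIs (0.635 CPM), a ratio of 0.216 with an upper bound of 0.480. IFNAR2, the ligand-binding partner, was near 0.5 CPM in trophectoderm-like cells of day 12 (0.529) and hypoblast-like cells of both days (0.508 and 0.553).

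Both type I chains stood highest in the mesoderm-like cells of the day 12 embryo. IFNAR2 reached 52.6 CPM (45.5 to 60.5) there, with a UMI in 97 of 199 cells, 95.1-fold above hypoblast-like cells (57.1 to 170) and 6.63-fold above epiblast-like cells at 7.93 CPM (3.92 to 12.1). IFNAR1 was at 21.8 CPM (17.4 to 27.2), 5.36-fold above hypoblast-like cells (3.99 to 7.17). The 2 chains were found together in 42 of the 199 mesoderm-like cells, 2 of 2549 hypoblast-like cells and 0 of 3248 trophectoderm-like cells, where a count of 0 allows up to 0.0924%. Mesoderm-like cells were also the deepest class, with a median of 19075 UMIs against 8218.5 in trophectoderm-like cells. After thinning to 2000 UMIs, IFNAR2 still had a UMI in 10.3% (6.38% to 15.4%) of mesoderm-like and 0.166% (0.0539% to 0.387%) of trophectoderm-like cells.

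In the endometrium all 4 chains were measured in every class compared, and 1 chain in 1 class passed 2-fold between days. Stromal-like cells, 5061 on day 9 and 5626 on day 12, held IFNGR1 at 15.5 and 20.8 CPM, a ratio of 1.34 (1.12 to 1.61). IFNGR2 was at 62.9 and 51.8 CPM there, a ratio of 0.824 (0.746 to 0.911). IFNAR1 was at 82.0 and 92.2 CPM (1.12, 1.04 to 1.22) and IFNAR2 at 40.6 and 48.3 CPM (1.19, 1.06 to 1.33). None of the 4 was called in stromal-like cells, where 5.87% of 10123 genes were called higher and 7.88% lower.

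Epithelial-like cells showed the chains for interferon gamma and those for type I interferon on opposite sides of 1. IFNGR2 had 67 UMIs (16.2 CPM, 12.5 to 20.5) and then 38 UMIs (30.5 CPM, 21.6 to 41.9), 1.89-fold (1.23 to 2.85), and IFNGR1 at 10.6 and 14.5 CPM (1.36, 0.740 to 2.40). IFNAR1 was at 53.6 and 32.9 CPM, a ratio of 0.614 (0.429 to 0.860), and IFNAR2 at 27.3 and 17.7 CPM (0.648, 0.391 to 1.03). The intervals of IFNGR2 and IFNAR1 leave out 1 and those of IFNGR1 and IFNAR2 do not. None was called, with 11.5% of 10485 genes called higher and 17.2% lower. The class was 669 cells in clusters 5 and 7 on day 9 and 296 cells in cluster 8 on day 12. Cluster 5 alone held IFNGR2 at 20.5 CPM (14.5 to 28.3) and IFNAR1 at 67.2 CPM, and cluster 7 held them at 12.8 CPM (8.65 to 18.3) and 43.2 CPM. For IFNGR2 the interval of cluster 5 overlapped that of day 12. For IFNAR1 cluster 7 stood closer than cluster 5 to the day 12 level of 32.9 CPM. The size of both differences thus varies with the day 9 cluster compared, and the part of this in the ratios was not tested. Summed stromal markers stood at 5929 and 6904 CPM in the class.

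IFNAR1 had a ratio near 0.6 in 3 further classes. It was 0.621 (0.517 to 0.749) in blood endothelial-like cells, from 135 to 83.5 CPM, 0.638 (0.513 to 0.791) in macrophage or monocyte-like cells, from 113 to 71.9 CPM, and 0.640 (0.449 to 0.901) in T or NK cell-like cells, from 76.3 to 48.8 CPM. In the last class IFNAR1 ranked at percentile 34.6 of the genes compared, with 24.3% of all genes called lower. Summed stromal markers went from 19432 to 4423 CPM in that class, and their part in its ratio was not tested. IFNAR2 was 0.602 (0.459 to 0.794) in blood endothelial-like cells, and its intervals held 1 in the macrophage or monocyte-like and T or NK cell-like cells. IFNGR1 was high in these same 3 classes on day 12, at 86.0, 89.8 and 99.6 CPM, which did not differ beyond their intervals, and its ratio between days was 0.960, 0.917 and 0.818 with intervals that held 1. IFNGR2 was 0.692 (0.515 to 0.939) in blood endothelial-like cells and 0.863 (0.689 to 1.08) in macrophage or monocyte-like cells. No chain was called in blood endothelial-like cells (4.37% of all genes higher, 7.9% lower) or in macrophage or monocyte-like cells (6.36% higher, 10.1% lower). In smooth muscle or pericyte-like and B or plasma cell-like cells, each of the 4 intervals held 1.

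The T or NK cell-like cells held the 1 chain that was called, but the call depended on which cells entered the class. IFNGR2 had 44 UMIs in 686 cells early and 4 UMIs in 657 cells late, 31.7 CPM (23.0 to 42.5) and 3.83 CPM (1.04 to 9.80), a ratio of 0.121 (0.0315 to 0.332). In this class 24.3% of all genes were called lower. Stromal markers moved with it: 13 of the 14 had UMIs on both days, and the list summed to 19432 CPM on day 9 and 4423 CPM on day 12, while stromal-like cells themselves stood at 51087 and 62058 CPM. At Leiden resolution 1.0 the class was 519 cells on day 9 and 654 on day 12, with stromal markers at 4221 and 5895 CPM, and IFNGR2 then had 10 and 6 UMIs, a ratio of 0.445 (0.133 to 1.35). Cluster 7 of the day 12 endometrium, 362 cells led by KLRB1, KLRK1 and XCL1 with stromal markers high, had stayed unnamed and held 49 UMIs of IFNGR2 (48.1 CPM, 35.6 to 63.5). Joined to the class, an alternative chosen after seeing the data, it gave 25.7 CPM in 1019 cells, a ratio of 0.810 (0.533 to 1.24), with stromal markers at 24063 CPM. Among cells of at least 2000 UMIs the ratio without it was 0.0645. Without cluster 7, B or plasma cell-like cells stood 4.72-fold (1.48 to 19.7) and stromal-like cells 13.5-fold (5.26 to 49.8) above the T or NK cell-like cells of day 12, and with it stromal-like cells stood 2.02-fold above (1.52 to 2.72).

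**Figure D4:**
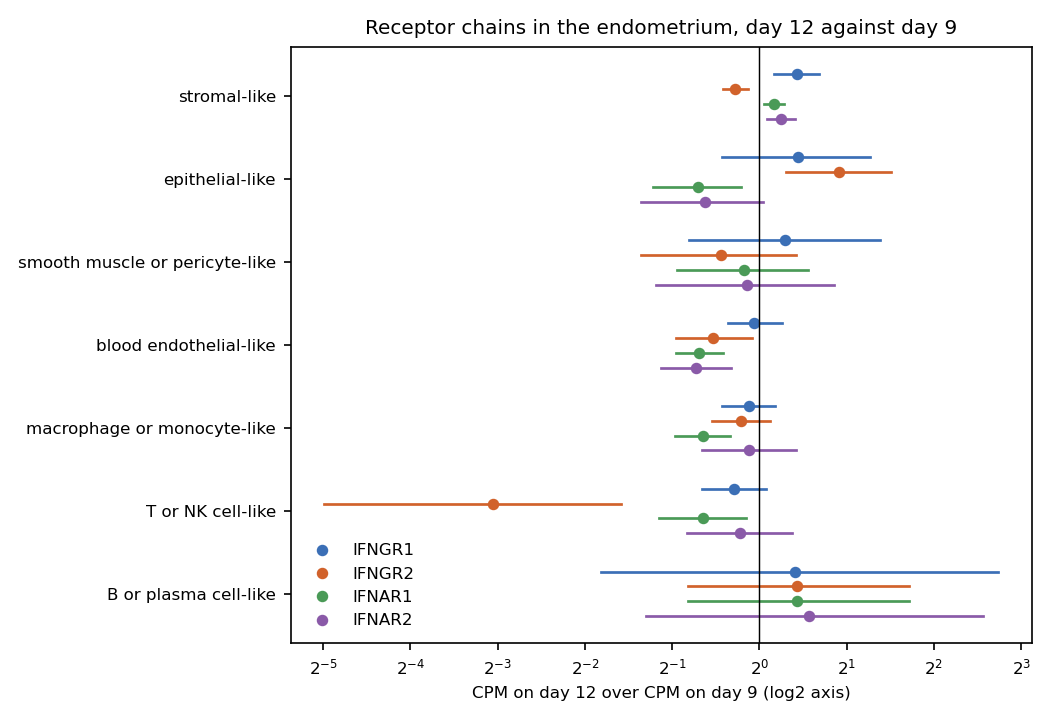
Ratio of the day 12 to the day 9 level (log2 axis) of the 4 receptor chains in 7 endometrial classes; points are ratios of CPM and bars their 95% exact binomial intervals, for counting error only. IFNGR2 lies at 0.121 in T or NK cell-like cells, 0.824 in stromal-like cells and 1.89 in epithelial-like cells, and the IFNAR1 ratios of 4 classes lie between 0.614 and 0.640.

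The order of the classes on day 12 differed from chain to chain. IFNGR1 was highest in T or NK cell-like, macrophage or monocyte-like and blood endothelial-like cells, with a step of 2.41-fold (1.44 to 4.34) down to the next class. IFNGR2 was highest in macrophage or monocyte-like cells at 76.6 CPM, 1.48-fold (1.24 to 1.76) above stromal-like cells. IFNAR1 had its highest level in stromal-like cells, but the next class, blood endothelial-like cells, did not differ beyond its interval (1.10, 0.981 to 1.24). IFNAR2 was highest in stromal-like cells as well, 1.26-fold above blood endothelial-like cells, with a lower bound of 1.06. As for both chains in 1 cell, IFNGR1 and IFNGR2 were found together in 37 of 598 macrophage or monocyte-like cells on day 12 and 35 of 612 on day 9, in 44 of 5626 stromal-like cells and in 3 of 296 epithelial-like cells. Such counts depend on depth (a median of 2233 UMIs per cell in the day 12 library) and on doublets, which the caller did not find in the endometrial libraries, so they are no measure of how many cells carry both.

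Of the lambda receptor chains, IFNLR1, the ligand-binding chain, had 7.81 CPM in hypoblast-like cells of day 12 and 18.5 CPM (11.7 to 27.7) in epithelial-like cells of the endometrium, where it was at 1.93 CPM (0.834 to 3.81) on day 9. IL10RB, which lies between IFNAR2 and IFNAR1, was at 7.84 and 17.8 CPM in stromal-like cells. IL10RB was called higher in stromal-like cells and IFNLR1 in epithelial-like cells, each 1 of the chains at 5 CPM there, of 1 and 2 in all. Of all genes 5.87% and 11.5% were called higher in these classes, and counts so small cannot be set against them. IFNLR1 passed the minimum only through day 12, which set its direction. IL10RB was not called in epithelial-like (1.35), T or NK cell-like (0.798), macrophage or monocyte-like (0.821) or blood endothelial-like cells (0.870).

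The signalling genes downstream of the receptors were described from lists of JAK and STAT genes and of inhibitors. Gene lists were not read in smooth muscle or pericyte-like and B or plasma cell-like cells. In trophectoderm-like cells JAK1, a kinase of both receptor routes, was called lower, at 21.9 and 10.2 CPM (0.467, 0.369 to 0.593). Its log2 ratio of -1.03 was just past the 2-fold limit, and 10.1% of all genes were called lower in this class. Whether this call holds under another scaling was not tested. STAT3, used by other cytokine receptors as well, was called higher there, from 2 UMIs (0.452 CPM) to 158 (5.57 CPM; 12.3-fold, 3.36 to 103), and passed the 5 CPM minimum only through day 12. In hypoblast-like cells STAT3 was called higher too, at 7.03 and 70.9 CPM (10.1-fold, lower bound 9.16). STAT2, a transcription factor of the type I route, was called higher in stromal-like cells, at 30.6 and 79.2 CPM (2.59-fold, 2.31 to 2.89). Macrophage or monocyte-like cells also had calls higher, with STAT2 at 30.9 and 74.7 CPM, STAT3 at 32.1 and 73.8 CPM, and JAK2, a kinase bound to IFNGR2, at 42.4 and 91.7 CPM. In T or NK cell-like cells JAK2 was called lower, at 46.1 and 21.1 CPM, beside the stromal markers given above.

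SOCS1, which blocks JAK kinases downstream of interferon receptors, was higher on day 12 in the 5 endometrial classes in which the lists were read. It stood at 26.9 and 374 CPM in macrophage or monocyte-like cells (13.9-fold, 10.3 to 19.1), 38.4 and 186 CPM in epithelial-like cells (4.85-fold), 68.1 and 292 CPM in stromal-like cells (4.29-fold), 43.3 and 163 CPM in blood endothelial-like cells (3.76-fold) and 92.9 and 274 CPM in T or NK cell-like cells (2.95-fold). Of the 9 matched inhibitors, 4 were called higher in macrophage or monocyte-like cells, against 6.36% of all genes, and none lower. Stromal-like cells had 1 higher (5.87% of all genes) and blood endothelial-like cells 1 (4.37%), with none lower. Epithelial-like cells had 1 higher and 1 lower, against 11.5% and 17.2% of all genes, while in T or NK cell-like cells 2 were higher and 2 lower, against 5.94% and 24.3%, so the lower calls of both classes and the higher call of epithelial-like cells were near the background. In the embryo SOCS3 was at 1.58 and 32.9 CPM in trophectoderm-like cells (20.8-fold, 10.0 to 51.8) and at 9.90 and 91.0 CPM in hypoblast-like cells (9.19-fold, 8.46 to 9.98), with 3 of 7 and 3 of 8 inhibitors called higher and none lower. Of all genes 29.3% and 12% were called higher in these classes, and the 3 of 7 are not far from that share. SOCS1 and SOCS3 in trophectoderm-like cells and CISH in hypoblast-like cells, each among those called, passed the 5 CPM minimum only through day 12. The direction of these calls was set by the minimum.

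Genes known to respond to interferon gamma were mostly higher in the endometrium of day 12. Of 17 matched genes, 11 of the 15 at 5 CPM were called higher in stromal-like cells (5.87% of all genes were), 8 of 15 in epithelial-like cells (11.5%), 9 of 15 in T or NK cell-like cells (5.94%), 12 of 17 in macrophage or monocyte-like cells (6.36%) and 10 of 17 in blood endothelial-like cells (4.37%). In these 5 classes 1 gene in all was called lower, in T or NK cell-like cells. Some of the called genes passed the 5 CPM minimum through 1 day alone, so that their direction was set by it. Among them were CIITA in stromal-like cells (2.37 and 25.5 CPM) and in epithelial-like cells (1.69 and 8.84 CPM). GBP2 in macrophage or monocyte-like cells (4.58 and 76.6 CPM) was another, as was CXCL11, the gene called lower (5.76 and 1.915 CPM). The median log2 ratio of the list was 2.76 in stromal-like cells against -0.10 over all genes compared, 1.05 against -0.18 in epithelial-like cells and 1.89 against -0.07 in macrophage or monocyte-like cells. PSMB9, a subunit of the immunoproteasome, was at 36.9 and 255 CPM in stromal-like cells (6.92-fold, 6.32 to 7.58). GBP1, a guanylate binding protein of cell defence, was at 48.7 and 1412 CPM in macrophage or monocyte-like cells (29.0-fold, 23.4 to 36.4), and at 9.42 and 113 CPM in epithelial-like cells (11.9-fold, 8.32 to 17.5). WARS1, a tRNA synthetase gene that interferon gamma induces, was at 21.2 and 182 CPM in blood endothelial-like cells (8.59-fold, 5.86 to 13.1). In trophectoderm-like cells 4 of the 17 reached 5 CPM and 2 were called higher, TAP1 (1.58 and 16.2 CPM) and ICAM1 (2.26 and 18.8 CPM); both passed the minimum only through day 12, and 29.3% of all genes were called higher. In hypoblast-like cells 1 of 4 was, against 12% of all genes: IRF1, a transcription factor, at 1.66 and 25.1 CPM, which also passed only through day 12.

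Genes known to respond to type I interferon had another pattern. In epithelial-like cells 10 of 20 were called lower on day 12, against 17.2% of all genes, and none higher, and the list's median was -1.02 against -0.18 over all genes. ISG15, a ubiquitin-like modifier, was at 1168 and 407 CPM there (0.349, 0.318 to 0.382), and MX1, an antiviral GTPase, at 151 and 53.8 CPM (0.358, 0.274 to 0.461). Stromal-like cells had 3 higher and 2 lower of 19, against 5.87% and 7.88% of all genes, with IFI6 at 12455 and 4888 CPM and IFIT1 at 131 and 389 CPM. T or NK cell-like cells had 8 lower and 1 higher of 19, against 24.3% and 5.94%, beside the lower stromal markers given above. Macrophage or monocyte-like cells had 2 higher and 4 lower (6.36% and 10.1% of all genes), and blood endothelial-like cells 2 and 2 (4.37% and 7.9%). In trophectoderm-like cells the 6 genes that reached 5 CPM were ISG15, ISG12(A), MX1, IFI6, IRF7 and BST2. Of these ISG12(A), at 7.01 and 27.2 CPM, reached 5 CPM on day 9; the others passed through day 12 alone, so that their direction was set by the minimum, and no count of calls is drawn from them. ISG15 went from 2 UMIs (0.452 CPM) to 2341 (82.6 CPM) and MX1 from 1 UMI to 272, and ISG15, MX1, IFI6 and BST2 are also the leading genes of the 89 cells of cluster 10. In hypoblast-like cells 4 of the 5 type I response genes at 5 CPM were called higher and none lower, against 12% and 8.78% of all genes. The list's median there was 2.91 against -0.16 over all genes. How many of the 4 passed the minimum through day 12 alone is not given here. In epithelial-like cells the 2 lists had calls in opposite directions, and the difference between them was not tested. Of 8 matched cytokines that induce IFNG in lymphocytes, calls went both ways. In stromal-like cells 1 of the 2 at 5 CPM was called higher and none lower, IL15 at 2.84 and 20.2 CPM (7.11-fold, 5.12 to 10.1), and in macrophage or monocyte-like cells 2 of 5 were higher, IL15 and IL27, and 1 lower, IL23A, from 19 to 2 UMIs. In hypoblast-like cells both at 5 CPM were called lower, IL18 at 12.4 and 0.898 CPM and IL1B2 at 27.8 and 0.553 CPM, and in trophectoderm-like cells IL1B2, the 1 gene there at 5 CPM, was lower (2970 and 11.8 CPM). IL15 was also called higher in blood endothelial-like cells (62.1 and 131 CPM), and on few UMIs in epithelial-like cells (5 and 7). In T or NK cell-like cells it went from 4 UMIs to 14 and was called higher, and IL18 went from 7 to 1 and was called lower. These counts of 1 or 2 genes are too few to set against the shares of all genes. Several of these genes, IL15 in stromal-like cells among them, also passed the 5 CPM minimum through 1 day alone, which set their direction. In T or NK cell-like cells TBX21, the transcription factor that drives IFNG in lymphocytes, was at 23.05 and 64.1 CPM (2.78-fold, 1.80 to 4.38), in the class where the T or NK cell markers summed to 2869 CPM on day 9 and 5021 CPM on day 12; their part in the TBX21 ratio was not tested.

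The genes whose levels followed each member most closely over clusters were found by Pearson's r of log2(CPM + 1), as a description; the clusters share libraries and depth, and for the chains they span 2 tissues. Over 19 embryonic clusters IFNG was most like 2 genes with no symbol, ENSSSCG00000042844 (r = 0.998) and ENSSSCG00000048235 (r = 0.996), and BATF3, a transcription factor (r = 0.989). IFN-DELTA-1 was most like GPX1, a glutathione peroxidase (r = 0.967), CCDC136 (r = 0.960) and MPST (r = 0.960). Over 46 clusters of all libraries IFNGR2 was most like VCAM1, an adhesion molecule (r = 0.971), and the collagen gene COL3A1 (r = 0.969), and IFNAR2 most like VIM, the vimentin gene (r = 0.967), followed by DPYSL2 and AHI1. IFNAR1 was most like ZNFX1 (r = 0.951), NR3C1, the glucocorticoid receptor (r = 0.947), and CD81 (r = 0.945). IFNGR1 had no gene as close, with NCOA7 first at r = 0.865.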

How the data were processed

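The deposited matrices hold raw UMI counts. The submitters' processing notes name Cell Ranger 6.1.2 and the build Sscrofa11.1 for what the authors ran, while the day 9 embryo matrix states Cell Ranger 4, per the file headers. The sources used here do not say how the authors chose cells. That matrix lists 657829 barcodes, so a cell there had to reach 2759.47 UMIs, which is 0.1 times the 99th percentile among its 3000 largest totals. Every kept cell had 1000 or more UMIs, 500 or more genes and no more than 20% mitochondrial UMIs. Scrublet (scanpy 1.11.5) marked 93 doublets among day 12 embryo cells, 1 on day 9 and 0 in both endometrial libraries; those marked were removed, but at under 0.5% of the cells it had not worked in the last 3 libraries. Clustering was done within each library: Leiden at resolution 0.6 with seed 0, on 15 neighbours in 30 components of 2000 variable genes. Names came from 173 markers that matched, of 193.

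Counts were summed per class and scaled to CPM, with exact Poisson intervals for levels and exact binomial ones for shares and ratios. Simulated counts with known ratios were used to check that the ratio step was computed correctly. They were drawn with counting error alone, as the intervals assume, so they say nothing on spread among cells or animals. Classes under 50 cells were not compared between days. Of 21280 genes, 14811 have a symbol in the files and 688 more took one from a reference table. The members, gene lists and markers were chosen with earlier results of these data known. Genes given as examples of passing the 5 CPM minimum through 1 day alone were named after their values were seen. Genes named beside the members are up to 4 per list and class that passed 2-fold at 20 CPM or more, and the 3 most alike at 50 CPM or more in a cluster, without mitochondrial, ribosomal protein or haemoglobin genes; not every gene so chosen is printed, 1 gene of the signalling list is not reported here, and IFNE, IFNLR1, IL10RB, STAT3 in trophectoderm-like cells, TAP1, ICAM1, the inducing cytokines, the type I response genes of trophectoderm-like cells and the trophectoderm markers were named after their values were seen. Alternatives were another scaling, stricter cell filters, another resolution, doublets kept, shared barcodes left out, 5 CPM added and no minimum level; the scaling for gene counts and the joining of cluster 7 were chosen after seeing the data.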

Additional observations from a re-analysis of the deposited data

Results flagged for a closer look

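In the day 9 embryo, barcodes with 100 UMIs or fewer, which are not cells, held UMIs of all 4 receptor chains above the 3 that a count of 0 allows and none of either interferon. Over 506870 such barcodes and 1347756 UMIs, IFNGR1 was at 25.2 CPM, IFNAR1 at 9.65 CPM, IFNGR2 at 5.19 CPM (7 UMIs, 2.09 to 10.7) and IFNAR2 at 2.97 CPM. The kept cells of the same library held IFNGR1 at 29.5 CPM, IFNAR1 at 7.90 CPM, IFNGR2 at 0.0121 CPM (1 UMI) and IFNAR2 at 0.533 CPM. Of the 7 UMIs of IFNGR2, 6 lay in the 15581 low barcodes that are kept cells of an endometrial library, where its level was 41.1 CPM (15.1 to 89.6), and 1 in the 486899 that are kept cells of no other library, 0.839 CPM (0.0213 to 4.68). IFNAR1 had 9 UMIs (61.7 CPM) in the former and 4 (3.36 CPM) in the latter, IFNAR2 had 3 (20.6 CPM) and 1 (0.839 CPM), and IFNGR1 had 9 (61.7 CPM) and 25 (21.0 CPM).

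IFNGR2 had ratios between days on opposite sides of 1 in stromal-like cells (0.824, 0.746 to 0.911) and epithelial-like cells (1.89, 1.23 to 2.85). With 1 library per day the difference between the classes was not tested.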

How the results depend on the processing

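No paired analysis was possible because each group holds 1 library, and for the same reason no replicate could be left out. Of 256 alternative values of 51 results, none turned a direction whose interval left out 1. Only ratios could be marked as turned, since shares and gene counts were checked for size alone. Among the values that answer a comparison 23 moved out of their interval, or by over 1.5 times for a gene count, and 125 did not. Of the other values 6 moved and 102 did not. Keeping doublets could not move any endometrial value, because 0 doublets were marked in those libraries, and such values count as not moved. With doublets kept, fewer day 12 cells were hypoblast-like, and the ratio between days was 0.693 for IFNGR1 and 0.283 for IFNAR1, and IFNGR1 in hypoblast-like over trophectoderm-like cells was 8.84 in place of 12.8. The median-of-ratios scaling gave 1.14 for IFNGR1 in hypoblast-like cells. At resolution 1.0 IFNGR2 in T or NK cell-like cells was 0.445. With cluster 7 of the day 12 endometrium joined, chosen after seeing the data, it was 0.810 and stromal-like over T or NK cell-like cells 2.02, since 362 cells entered. Thinned to 1000 UMIs in place of 2000, the share of cells with a UMI was 46.2% for IFNG in trophectoderm-like cells, 5.06% in hypoblast-like cells and 4.8% for IFNGR2 in stromal-like cells, since fewer UMIs were drawn. IFN-DELTA-1 among cells with IFNG was 3.37% thinned.

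Genes lower past 2-fold with 5 CPM added were 412 in place of 723 in hypoblast-like, 457 in place of 798 in stromal-like, 380 in place of 778 in blood endothelial-like, 478 in place of 963 in macrophage or monocyte-like and 1596 in place of 2455 in T or NK cell-like cells; higher ones were 230 in place of 430, 345 in place of 607 and 396 in place of 600 in the last 3. With no minimum level, blood endothelial-like cells had 784 higher and 1294 lower, and macrophage or monocyte-like cells 1640 lower. The median-of-ratios scaling, chosen for these counts after seeing the data, gave 439 lower in place of 783 in trophectoderm-like cells. Other causes were not tested. Depth limits the shares: thinned to 2000 UMIs, 10.3% of day 12 stromal-like cells had a UMI of IFNGR2.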
